A study of Mus musculus with 2 samples.

Results

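Most of the genes described here make, break down or directly respond to cyclic AMP (cAMP) and cyclic GMP (cGMP). The set was chosen by symbol, as all genes named Adcy, Pde, Prkaca or Prkacb, Prkar1 or Prkar2, Prkg1 or Prkg2, or Gucy1 or Gucy2 that have at least 1 protein-coding transcript. The rule found 52 of 55536 annotated genes, and it uses symbols and transcript types only. They comprised 10 adenylyl cyclases, 24 genes with a phosphodiesterase name, Pde4dip, 2 catalytic and 4 regulatory genes of cAMP-dependent protein kinase (PKA), 2 genes of cGMP-dependent protein kinase (PKG), 4 soluble and 5 receptor guanylyl cyclases.

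Total RNA was sequenced from hippocampal tissue of male B6CASTF1/J mice, first-generation hybrids of C57BL/6J and CAST/EiJ, aged 18 to 20 months. The study holds 1 group of 2 libraries, called replicate 1 and replicate 2, with no treatment, no altered gene and no other age, so no comparison of conditions was possible. The labels call them biological replicates, but both carry the same donor record and whether separate animals were used is not given, so how much of the spread between them is technical is unknown. Levels are in TPM, a transcript abundance scaled to a fixed total, which corrects for transcript length and is the scale used here to compare genes. With 2 libraries the smallest p of an exact two-sided sign-flip test is 0.5, so values are given with their spread and no p-values.

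Replicate 1 had 34563482 and replicate 2 had 32370292 expected counts over genes, so 0 counts allowed up to 0.0868 and 0.0927 CPM (counts scaled to library size), for counting error only. Excitatory neuron markers had a median TPM of 553 in replicate 1 and 605 in replicate 2, and the markers of dentate granule, CA1 and CA3 neurons were all detected, 4 of 4 in each list. The median of the mean TPM in these 3 lists was 33.4, 59.0 and 23.9. Thalamic, ependymal and meningeal fibroblast markers were all detected too, with medians of 14.1, 1.69 and 2.36, so detection alone is not particular to hippocampal neurons. Choroid plexus markers stood apart between the libraries, with a summed TPM of 36.8 in replicate 1 and 699 in replicate 2 over 7 genes, all of them with counts in both. Of 8 photoreceptor markers, 0 reached a TPM of 1 in both libraries, and Crx and Gnat2 were at 0 in both. In tissue RNA, fewer cells of a type and less RNA per cell cannot be told apart.

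As background, adenylyl and guanylyl cyclases form cAMP and cGMP from ATP and GTP, and phosphodiesterases are the enzymes that hydrolyse them. cAMP binds the regulatory subunits of PKA and thereby frees the catalytic subunits, which phosphorylate channels, receptors and the transcription factor CREB. In the hippocampus this signalling is known for its part in lasting synaptic change and memory, and nitric oxide acts there largely through soluble guanylyl cyclase and cGMP.

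Several of the kinases are built with alternative starts, and the first coding bases show where the products of each gene part. The sequences below are from the GENCODE M21 transcripts on mm10, 75 bases from the start codon, 5′ to 3′. Bases of the transcript's own first coding exon are in capitals and the coding bases after it in lower case. Prkaca-201, Prkaca-202 and the forms of Prkacb differ in the capitals, and all but Prkacb-201 run on into a common exon of their gene. The first coding exon of Prkacb-201 has 187 bases, so all its printed bases are capitals.
Prkaca-201: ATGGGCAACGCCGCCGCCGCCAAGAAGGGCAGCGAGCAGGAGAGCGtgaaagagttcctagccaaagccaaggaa
Prkaca-202: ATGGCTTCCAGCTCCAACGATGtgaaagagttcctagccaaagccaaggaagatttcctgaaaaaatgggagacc
Prkacb-202: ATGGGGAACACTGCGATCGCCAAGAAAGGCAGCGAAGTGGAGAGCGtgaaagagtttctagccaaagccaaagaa
Prkacb-203: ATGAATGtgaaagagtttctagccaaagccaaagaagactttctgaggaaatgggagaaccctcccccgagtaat
Prkacb-204: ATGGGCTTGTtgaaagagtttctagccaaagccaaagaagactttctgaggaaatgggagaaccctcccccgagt
Prkacb-201: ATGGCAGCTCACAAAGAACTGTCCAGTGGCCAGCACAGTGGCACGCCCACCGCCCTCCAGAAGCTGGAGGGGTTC
The first coding exon of Prkaca-201 and that of Prkacb-202 are both 46 bases long and differ at 10 bases. The 29 bases that follow differ at 2, and the whole coding sequences, 1053 bases each, were 80.2% identical without gaps.

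Prkg1 has alternative first coding exons that lie far apart on chromosome 19 and encode different amino-terminal ends, so all printed bases of both forms are capitals.
Prkg1 I alpha: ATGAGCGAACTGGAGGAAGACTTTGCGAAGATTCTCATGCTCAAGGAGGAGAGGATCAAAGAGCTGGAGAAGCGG
Prkg1 I beta: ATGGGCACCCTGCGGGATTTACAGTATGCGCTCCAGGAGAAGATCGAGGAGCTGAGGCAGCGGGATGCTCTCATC
The start codon of I alpha lies at position 31764822 and that of I beta at 31664281, on the minus strand of mm10.

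Of the 52 genes, 37 were detected, meaning that both libraries had a TPM of 1 or more, and 15 were not, while 57.5% of the 22028 protein-coding genes were detected by the same measure. The median of the mean TPM was 8.98 over the 52 genes and 3.15 over all protein-coding genes. A mean TPM of at least 10 was reached by 25 genes, or 48.1% against 35.5% of all protein-coding genes, and one of at least 100 by 6 genes, or 11.5% against 3.69%. Those 6 were Prkar1a, Prkar1b, Adcy1, Pde2a, Prkaca and Prkacb. PKA regulatory genes held 27.5% ± 1.1 of the summed TPM of all 52 genes, phosphodiesterases 28.9% ± 0.14, adenylyl cyclases 19.2% ± 0.89 and PKA catalytic genes 13.5% ± 0.26 (SD, n = 2 each). Pde4dip held 5.50% ± 0.27, soluble guanylyl cyclase 4.69% ± 0.052, PKG 0.652% ± 0.0019 and receptor guanylyl cyclases 0.0896% ± 0.0084 (SD, n = 2 each).

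**Figure D1:**
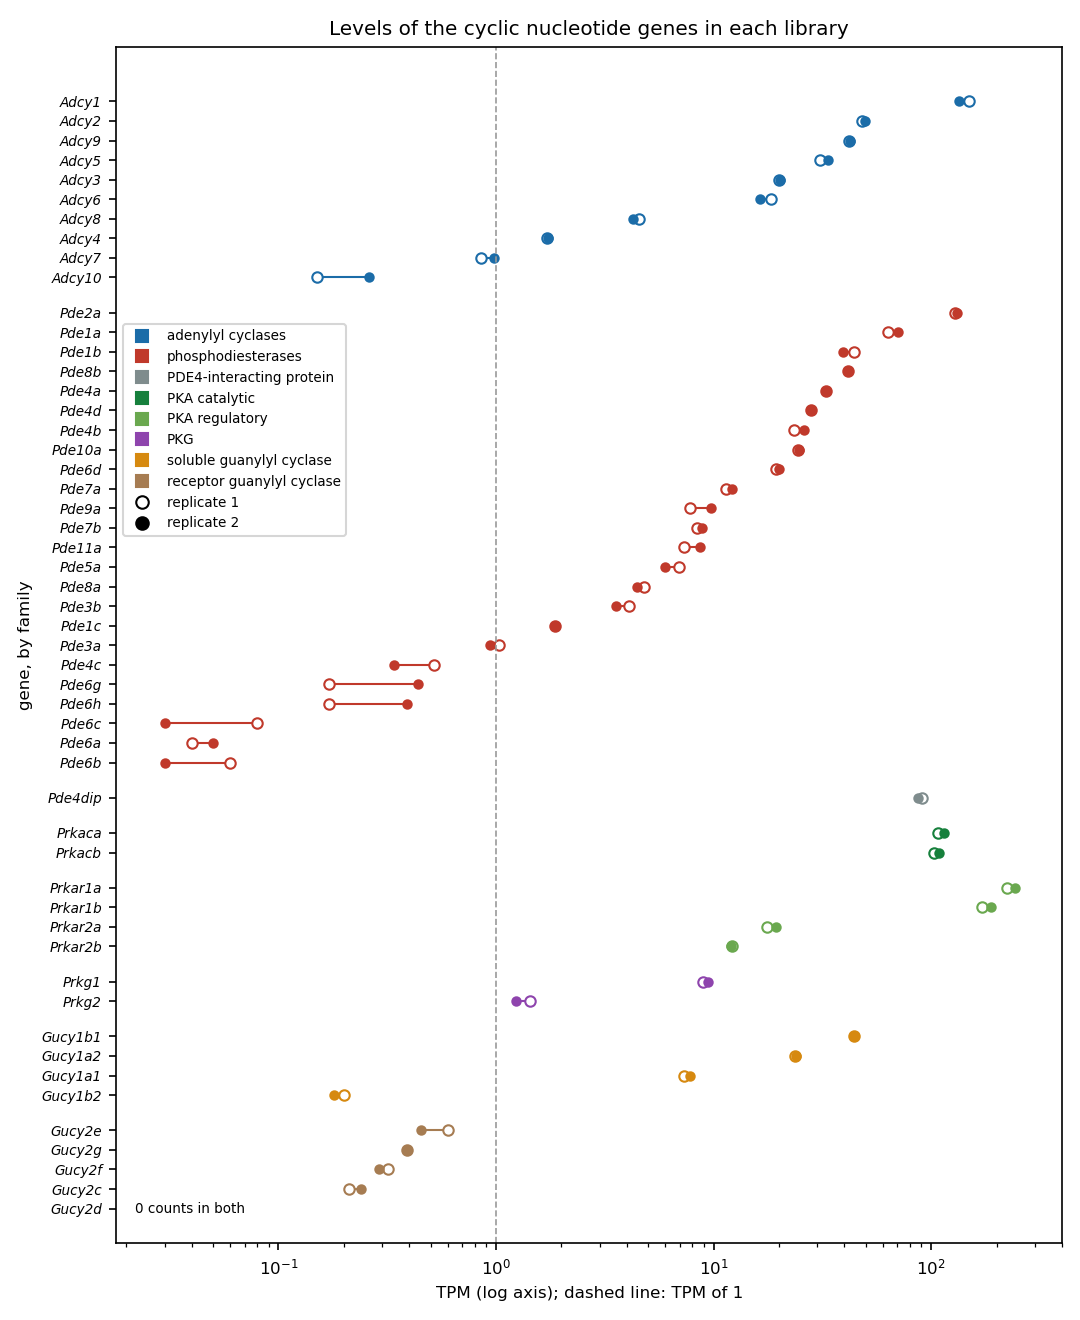
Deposited TPM of each of the 52 genes in replicate 1 (open) and replicate 2 (filled), on a log axis and ordered by family; a line joins the libraries. The 6 genes at a TPM of 100 or more belong to the adenylyl cyclases, phosphodiesterases and PKA, and Gucy2d had no count in either library.

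Among the cAMP-forming enzymes, Adcy1 had the highest level. Adcy1, a cyclase stimulated by calcium and calmodulin that couples calcium entry to cAMP, was at a TPM of 149 in replicate 1 and 134 in replicate 2. It lies at chr11:7063489-7178506 of mm10, and 99.7% of its TPM in either library came from 1 transcript of 12259 bases. Its share of the adenylyl cyclase TPM was 47.1% and 44.2%, a mean of 45.7% ± 2.1 (SD, n = 2). The next cyclase, Adcy2, had 48.2 and 49.7, so Adcy1 exceeded it 2.90-fold ± 0.27 (SD, n = 2), and the values of the genes did not overlap.

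Adcy8, the other cyclase best known for activation by calcium in hippocampal neurons, was much lower, at a TPM of 4.54 and 4.28. The Adcy1 level was 32.1-fold ± 0.95 that of Adcy8 (SD, n = 2). Adcy3, which serves odour signalling and sits in primary cilia of neurons, had 20.1 and 20.3. Together Adcy1, Adcy3 and Adcy8, the genes grouped as calcium and calmodulin stimulated, held 53.6% ± 1.9 of the cyclase TPM (SD, n = 2).

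Adcy2, Adcy4 and Adcy7, which G protein beta-gamma subunits stimulate together with the alpha subunit, held 16.7% ± 0.80, nearly all of it from Adcy2. Adcy4 had a TPM of 1.72 and 1.74, and Adcy7 stayed just under the detection level at 0.85 and 0.98. The calcium-inhibited cyclases held 16.0% ± 0.56, with Adcy5 at 31.0 and 33.7 and Adcy6 at 18.3 and 16.3. Adcy5 is the main cyclase of the striatum, while the striatal marker list had a median TPM of 0.90 and 1.06 here, with 3 of 6 genes detected, so its level stood above that list in both libraries.

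Adcy9, a membrane cyclase that responds poorly to forskolin, was at a TPM of 42.0 and 42.5 and held 13.6% ± 0.49 of the family. It came next after Adcy2, and both libraries kept that order. Adcy10, the soluble cyclase that bicarbonate stimulates, had the lowest level of the family, 0.15 and 0.26, from 5 and 7 counts. The order Adcy1, Adcy2, Adcy9, Adcy5, Adcy3, Adcy6, Adcy8, Adcy4, Adcy7, Adcy10 was the same in both libraries for gene totals.

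**Figure D2:**
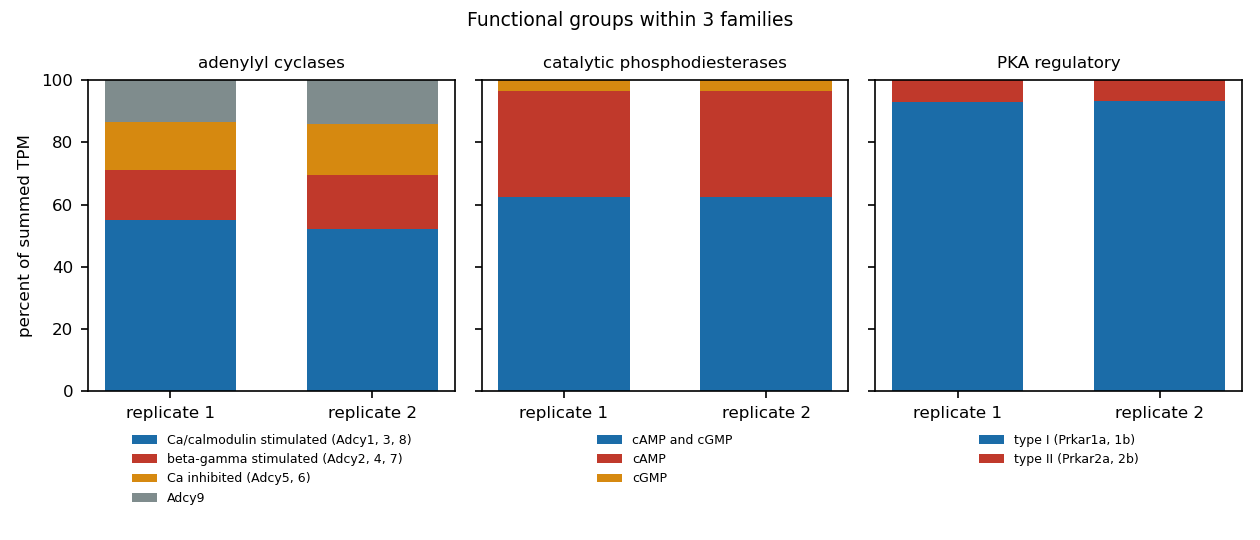
Percent of the summed TPM held by functional groups of adenylyl cyclases, catalytic phosphodiesterases and PKA regulatory genes, 1 bar per library; Adcy10, under 0.1% of the cyclases, is left out. Calcium and calmodulin stimulated cyclases, phosphodiesterases that hydrolyse both nucleotides and type I regulatory genes were the largest group of their family in both libraries.

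Pde2a was the most abundant gene with a phosphodiesterase name. It encodes an enzyme that hydrolyses both nucleotides and is activated when cGMP binds it. Its TPM was 129 in replicate 1 and 131 in replicate 2, which was 27.9% ± 0.051 of the TPM of the 24 genes and 29.2% ± 0.018 of that of the catalytic ones alone (SD, n = 2). Pde2a lies at chr7:101421691-101512827 of mm10, and its exons overlap those of Gm45837 on the same strand, so its counts were in part split by a model.

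The calcium and calmodulin stimulated PDE1 enzymes followed. Pde1a had a TPM of 63.7 and 70.4, Pde1b 44.3 and 39.2, and Pde1c, the form with high affinity for both nucleotides, only 1.86 in either library. The PDE1 genes together held 24.8% ± 0.11 of the catalytic phosphodiesterase TPM (SD, n = 2). Pde1a was higher and Pde1b lower in replicate 2, and the family sum moved only from 109.9 to 111.5.

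Other enzymes that accept both nucleotides were lower. Pde10a, known for its high level in striatal medium spiny neurons, had a TPM of 24.4 and 24.7, and Pde11a 7.29 and 8.67. The PDE3 enzymes, which cGMP inhibits, were at 4.08 and 3.58 for Pde3b and at 1.03 and 0.94 for Pde3a, which therefore missed detection in replicate 2. All enzymes of both nucleotides together held 62.4% ± 0.078 of the catalytic phosphodiesterase TPM (SD, n = 2).

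The cAMP-specific enzymes held 34.2% ± 0.020 (SD, n = 2), with no gene as dominant as Pde2a. Within PDE4, the target of rolipram, Pde4a had a TPM of 32.9 and 32.8, Pde4d 28.1 and 27.9, and Pde4b 23.5 and 25.9, while Pde4c was not detected at 0.52 and 0.34. Pde8b, a high-affinity enzyme that rolipram does not inhibit, was the highest cAMP-specific gene by gene total at 41.5 and 41.4, or 8.97-fold ± 0.42 the level of its relative Pde8a at 4.78 and 4.47 (SD, n = 2). In transcripts with a complete coding sequence Pde8b was at 22.63 and 21.99, below Pde4a at 32.3 and 32.4, and 4.96-fold ± 0.16 the level of Pde8a. Of the PDE7 genes, Pde7a was at 11.5 and 12.2 and Pde7b at 8.37 and 8.87, and in complete coding transcripts the order turned, with Pde7a at 4.39 and 4.86 and Pde7b at 7.39 and 8.50.

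The cGMP-specific enzymes held 3.45% ± 0.098 (SD, n = 2). Pde9a, which has the highest affinity for cGMP of its superfamily, had a TPM of 7.80 and 9.76, and Pde5a, the target of sildenafil, 6.94 and 5.99. Pde9a lay above Pde5a in both libraries. The photoreceptor enzymes Pde6a, Pde6b and Pde6c were each at or under a TPM of 0.08, from 2 to 5 counts a library.

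Not every gene with a PDE6 name is a catalytic one. Pde6d, whose product binds prenylated proteins and carries them between membranes, a protein known from many tissues, was at a TPM of 19.3 and 20.0. The inhibitory subunits Pde6g and Pde6h were not detected, with 0.17 in replicate 1 for both and 0.44 and 0.39 in replicate 2, and the exons of Pde6h overlap Arhgdib on the opposite strand. Pde4dip, or myomegalin, is matched by its symbol but is an anchoring protein of the centrosome and Golgi, not an enzyme. Its TPM was 90.5 and 86.9, above every phosphodiesterase gene except Pde2a on this scale. In the second quantification and in complete coding transcripts it was also below Pde1a, with 101 and 96.5 in the former and 45.6 and 48.3 in the latter.

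For PKA, regulatory genes were more abundant than catalytic ones. The 4 regulatory genes summed to a TPM of 425 in replicate 1 and 463 in replicate 2, and the catalytic genes to 211 and 224. Regulatory genes therefore exceeded catalytic ones 2.01-fold and 2.07-fold, a log2 ratio of 1.03 ± 0.030 (SD, n = 2). Each subunit occurs in equal number in the assembled kinase, and protein was not measured.

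Prkar1a and Prkar1b encode the type I subunits, which are mostly cytosolic and bind cAMP more readily than type II. Prkar1a had a TPM of 224 and 242 and Prkar1b, the form largely restricted to the nervous system, 172 and 189. Prkar1a led Prkar1b 1.29-fold ± 0.014 in the first quantification (SD, n = 2) and held 52.5% ± 0.17 of the regulatory TPM. In the second quantification, a separate set of TPM deposited for the same reads, Prkar1b led, at 342 and 373 against 318 and 340. Which gene total is higher therefore depends on the quantification. Complete coding transcripts held 68.9% and 71.2% of Prkar1b there, but 99.5% and 99.8% of Prkar1a. Counting those only, Prkar1a was the higher in both quantifications, 1.31-fold ± 0.035 in the first (SD, n = 2).

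The type II subunits, which A-kinase anchoring proteins hold near synapses and channels, were lower. Prkar2a had 17.7 and 19.4 and Prkar2b 12.1 and 12.05. Type I genes made up 93.1% ± 0.16 of the regulatory TPM, and the ratio of type I to type II was 13.5 ± 0.33 in the first and 12.3 ± 0.17 in the second quantification (SD, n = 2 each).

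The catalytic genes were almost level in gene totals. Prkaca, at chr8:83972993-83996443, had a TPM of 108 and 115, and Prkacb, at chr3:146729574-146812990, 103 and 109. Prkaca held 51.2% ± 0.10 of their sum (SD, n = 2). In the second quantification Prkacb was ahead, with 188 and 233 against 174 and 185 for Prkaca, so no order of the gene totals held across both. Complete coding transcripts held 60.3% and 50.9% of Prkacb there, but 100% of Prkaca. Counting those only, Prkaca was the higher in both quantifications, 1.41-fold ± 0.0087 in the first (SD, n = 2).

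The starts printed above were used unequally. Of the Prkaca TPM in complete coding transcripts, 98.6% ± 0.17 came from Prkaca-201, which encodes 351 amino acids, and 1.39% ± 0.17 from Prkaca-202, with 343 (SD, n = 2 each). The latter start is the one known from sperm, and the second quantification gave it 8.55%. Prkacb was more divided. Its 351-residue form Prkacb-202 held 66.4% ± 1.8, the 338-residue Prkacb-203 22.2% ± 1.3 and the 339-residue Prkacb-204 10.8% ± 0.21 (SD, n = 2 each). The second quantification kept that order, with 70.0%, 24.0% and 5.96%.

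In the promoters of these genes, the cAMP response element that CREB binds was searched as TGACGTCA, which reads the same on both strands. RefSeq promoter windows of GRCm38.p6 were matched by symbol for 41 of the 52 genes, with 82 windows. The element was in 2 windows, 2.44%, against 1.79% of all 32851 windows of that length, and the shorter TGACG, which the full element contains, was in 23.2% against 20.8% on either strand. Both windows with the full element belong to Prkar1a and hold the same site, 49 bases before 1 of its annotated starts, shown here with the element in capitals, plus strand, chr11:109650889-109650918.
Prkar1a: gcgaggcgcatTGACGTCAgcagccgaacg
The match describes letters only, since binding was not measured.

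The cGMP branch was thinner. Prkg1, which encodes both forms of the type I cGMP kinase, had a TPM of 8.91 and 9.46, and Prkg2, the membrane-bound type II kinase, 1.43 and 1.23. Prkg1 exceeded Prkg2 6.96-fold ± 1.0, and 14.5-fold ± 3.8 in complete coding transcripts (SD, n = 2 each). PKA catalytic genes exceeded the PKG genes 20.7-fold ± 0.34 (SD, n = 2). Of the 2 Prkg1 starts printed above, that of I beta, with 686 amino acids, held 61.5% ± 2.0 of the complete coding TPM, and that of I alpha, with 671, 38.5% ± 2.0 (SD, n = 2 each). The second quantification gave 56.7% and 43.3%, the same order.

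Soluble guanylyl cyclase, the receptor for nitric oxide, is a dimer of an alpha and a beta chain. Gucy1b1, the common beta chain, had a TPM of 44.0 and 44.3. The alpha chains were Gucy1a2 at 23.7 and 23.9 and Gucy1a1 at 7.29 and 7.79, so Gucy1a2 exceeded Gucy1a1 3.16-fold ± 0.12 (SD, n = 2). Summed beta exceeded summed alpha 1.42-fold ± 0.019 (SD, n = 2), and Gucy1b2, a second beta gene, added only 0.20 and 0.18. Gucy1a1 and Gucy1b1 are neighbours on the minus strand of chromosome 3, 17.7 kb apart, and Gucy1b1 was 5.86-fold ± 0.25 the higher of them (SD, n = 2).

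No receptor guanylyl cyclase matched by the rule reached a TPM of 1. Gucy2e and Gucy2f, the retinal forms, had 0.60 and 0.45 and 0.32 and 0.29. Gucy2g was at 0.39 in either library and Gucy2c, the intestinal receptor for guanylin, at 0.21 and 0.24. Gucy2d, the form of a subset of olfactory neurons, had 0 counts in both. The natriuretic peptide receptors Npr1 and Npr2 are receptor cyclases too but carry other symbols, and Npr2 was at 20.8 and 18.8 and Npr1 at 2.31 and 2.44.

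The summed levels of the families can be set side by side within each library. The 24 genes with a phosphodiesterase name, Pde6d, Pde6g and Pde6h included, exceeded the adenylyl cyclases 1.46-fold in replicate 1 and 1.55-fold in replicate 2. Their ratio was 1.53 and 1.61 in the second quantification, but 1.15 and 1.23 in complete coding transcripts of the first. Adenylyl cyclases exceeded soluble guanylyl cyclase 4.10-fold ± 0.14, and cAMP-specific phosphodiesterases exceeded cGMP-specific ones 9.92-fold ± 0.29 (SD, n = 2 each). In the second quantification these values were 4.22-fold ± 0.19 and 8.04-fold ± 1.0. In complete coding transcripts the cAMP-specific enzymes exceeded the cGMP-specific ones 16.7-fold ± 1.4 (SD, n = 2).

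Of 64 other genes of the pathway, 47 were detected. All 6 G protein genes that act on cyclases were, from Gnas, the stimulatory alpha subunit, at a TPM of 755 and 839, to Gnai3, an inhibitory one, at 11.1 and 12.4. Next to Gnas came Gnai2 at 90.03 and 98.0. Gnas also encodes other proteins from the same locus, and this gene-level value does not separate them.

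Of the PKA inhibitors and the related kinase Prkx, 4 of 4 were detected, with Pkia at 68.6 and 73.0, Pkig at 38.6 and 35.4, and Prkx, at 4.92 and 5.30, and Pkib, at 5.53 and 4.79, lowest and with overlapping values. Among 12 A-kinase anchors 10 were detected, led by Akap11 at 74.1 and 77.9 and Akap6 at 51.1 and 55.2, while Akap4, an anchor of sperm, had 0 counts. Of 10 PKA targets and CREB coactivators all 10 were detected by gene total. On that measure the CREB coactivator Crtc1 was highest at 78.6 and 82.2. Ppp1r1a, a phosphatase inhibitor, came next at 48.6 and 41.8, and Crtc3 was lowest at 7.95 and 7.19. Of the Crtc2 total, 18.0 and 13.8, protein-coding transcripts held only 0 and 1.21, below those of Crtc3 at 6.47 and 6.28.

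Other receivers of the nucleotides included Rapgef4, the exchange factor Epac2, at a TPM of 171 and 176, and Hcn2, a channel whose opening cAMP favours, at 52.9 and 55.8. Of 15 such genes 7 were detected, and Cnga1 and Cngb3, channel subunits of photoreceptors, had 0 counts. For cGMP, 6 of 13 inputs outside the rule were detected, with the neuronal nitric oxide synthase Nos1 at 27.9 and 31.9 above Npr2, and Nppa and Nppb, which encode natriuretic peptides, at 0 to 2 counts a library. The exporters Abcc5, at 78.3 and 77.1, and Abcc4, at 2.81 and 3.10, were both detected. The peptide PACAP, Adcyap1, was at 1.78 and 1.55, and its receptor Adcyap1r1 at 52.3 and 55.2.

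The spread between the libraries was compared on counts normalized by TMM, for the 36 of 52 genes whose mean CPM was 5 or more. None, 0 of 36, differed by 1.5-fold or more, a size reached by 0.246% of protein-coding genes at that level, and 0 of 36 differed by 25% or more, against 1.56%. The log2 ratio of replicate 2 over replicate 1 ran from -0.19 to 0.25 with a median of 0.010, beside a median of 0.0085 over all protein-coding genes. It was above 0 for 19 genes and below 0 for 17.

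The largest ratios were those of Pde9a, 1.19-fold higher in replicate 2 (95% interval 1.01 to 1.40, from 275 and 310 counts), Pde11a, 1.17-fold (1.05 to 1.31), and Pde3a, 1.11-fold (0.919 to 1.35). The lowest was that of Adcy1, 0.875-fold (0.863 to 0.887, from 45282 and 37632 counts), followed by Pde1b, 0.881-fold (0.836 to 0.928), and Pde8a, 0.901-fold (0.783 to 1.04). These exact intervals cover counting error only. The Pde3a counts were higher in replicate 2 while its TPM was lower, since TPM also takes up the transcript lengths estimated in each library.

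Beside these ratios, all 3 choroid plexus markers past the same level were over 1.5-fold higher in replicate 2, led by Ttr, at a TPM of 29.9 and 672. The mural cell list had a median TPM of 3.50 and 1.71, with 1 of 5 markers at that level, Myh11, over 1.5-fold lower, and 1 of 5 thalamic markers, Calb2, was over 1.5-fold higher. What these differences contribute to the ratios of Pde9a, Adcy1 and the others was not tested, and 0 of 43 pathway genes at that level passed 1.5-fold.

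**Figure D3:**
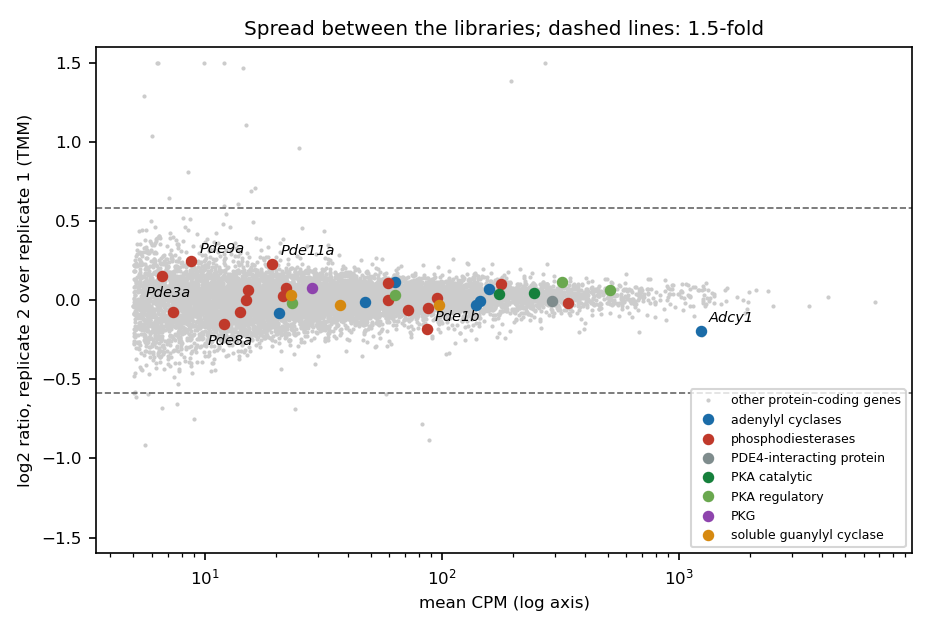
Log2 ratio of replicate 2 over replicate 1 against mean CPM for the 36 genes at a mean CPM of 5 or more (coloured by family) and other protein-coding genes at that level (grey; ratios beyond the axis are drawn at its edge). All 36 lie between -0.19 and 0.25, inside the 1.5-fold lines, with Pde9a highest and Adcy1 lowest.

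Exons of Adcy2, Adcy3, Adcy6, Pde8b, Pde9a and Pde3a overlap those of genes on the opposite strand and exons of Prkar1b those of Gm15672 on the same strand, so their counts are uncertain to that extent.

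Gene totals do not say which transcripts carry them. Of 326 transcripts annotated to the 52 genes, 190 are protein-coding. In 6 of 37 genes whose mean TPM was 1 or more, transcripts with a complete coding sequence held the smaller share of the gene TPM taken over both libraries, against 15.2% of protein-coding genes. These were Adcy4, Adcy6, Prkg2, Pde5a, Pde7a and Pde9a. For Adcy4, Pde5a and Pde7a the share was the smaller one in each library. It was the larger one for Adcy6 (55.7%) and Pde9a (50.2%) in replicate 2 and for Prkg2 (51.7%) in replicate 1. The second quantification gave a mean of 62.0% for Adcy4 and 60.0% for Adcy6. For the others it gave 23.5% for Pde9a, 31.9% for Pde7a, 35.7% for Prkg2 and 48.2% for Pde5a.

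In Pde5a a noncoding transcript led. This transcript, Pde5a-203, is 418 bases long and held 62.3% and 56.8% of the gene TPM, and 52.6% and 50.2% in the second quantification. Complete coding transcripts were left with 37.2% and 42.2%, a TPM of 2.58 and 2.53. In Pde7a, retained-intron transcripts held 60.2% in either library. The transcripts encoding its 456-residue and its 482-residue protein shared nearly all of the rest in the first quantification. The second gave retained introns 47.7% and 46.4%, with means of 13.0% for other noncoding and 8.02% for nonsense-mediated decay transcripts. Exons of Pde5a and Pde7a overlap noncoding genes on the opposite strand, and whether counting used strand is not stated, so reads of the overlap cannot be told apart.

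Pde2a also changed with the transcripts counted. A transcript marked for nonsense-mediated decay, Pde2a-209, held 30.7% and 26.4% of its TPM, but 7.33% and 8.44% in the second quantification. Counting complete coding transcripts only, Pde2a exceeded Pde1a 1.18-fold ± 0.0062, against 1.94-fold ± 0.11 for gene totals (SD, n = 2 each). Pde2a was the highest phosphodiesterase gene either way. Of its complete coding TPM, 59.0% ± 3.8 encoded a 945-residue and 41.0% ± 3.8 a 939-residue protein that starts in another exon (SD, n = 2 each). The second quantification gave 50.9% and 30.5%, with 18.6% on a 935-residue form that the first listed at 0.

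The PDE4 genes use alternative starts to make long forms with regulatory domains and short forms without some of them. For Pde4a the 844-residue form led with 60.5% ± 0.087 of the complete coding TPM and a 610-residue form held 37.8% ± 0.57 (SD, n = 2 each), and the second quantification gave 58.6% and 40.7%. The first coding exons of these forms differ, and only the short form leaves its own exon within the 75 bases printed.
Pde4a-202: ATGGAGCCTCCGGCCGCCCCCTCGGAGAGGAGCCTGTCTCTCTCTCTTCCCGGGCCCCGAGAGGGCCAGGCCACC
Pde4a-201: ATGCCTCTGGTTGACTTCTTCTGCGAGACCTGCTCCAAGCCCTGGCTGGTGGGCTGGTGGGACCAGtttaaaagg
For Pde4b a 721-residue form led with 69.3% ± 1.5, and for Pde4d a form of 584 residues with 56.1% ± 2.4 (SD, n = 2 each). In the second quantification they held 53.3% and 72.5%. So the leading form was the long one in Pde4a and a shorter one in Pde4d, which also encodes 803 residues at 11.3% ± 2.6. A 703-residue form of Pde4d held 18.2% ± 0.51 (SD, n = 2). The second quantification gave the 803-residue form 17.3%, but the 703-residue form only 0% and 0.0005%.

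Among the cyclases, Adcy9 was read as a 1353-residue form at 59.8% ± 1.6 and a 1116-residue form at 40.2% ± 1.6 (SD, n = 2 each). Adcy8 was less certain, since its 1249-residue form held 55.2% in replicate 1 and 92.2% in replicate 2, and the smaller 1219-residue form the rest. Adcy6 was split over several classes, with complete coding transcripts at 36.2% and 55.7%.

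**Figure D4:**
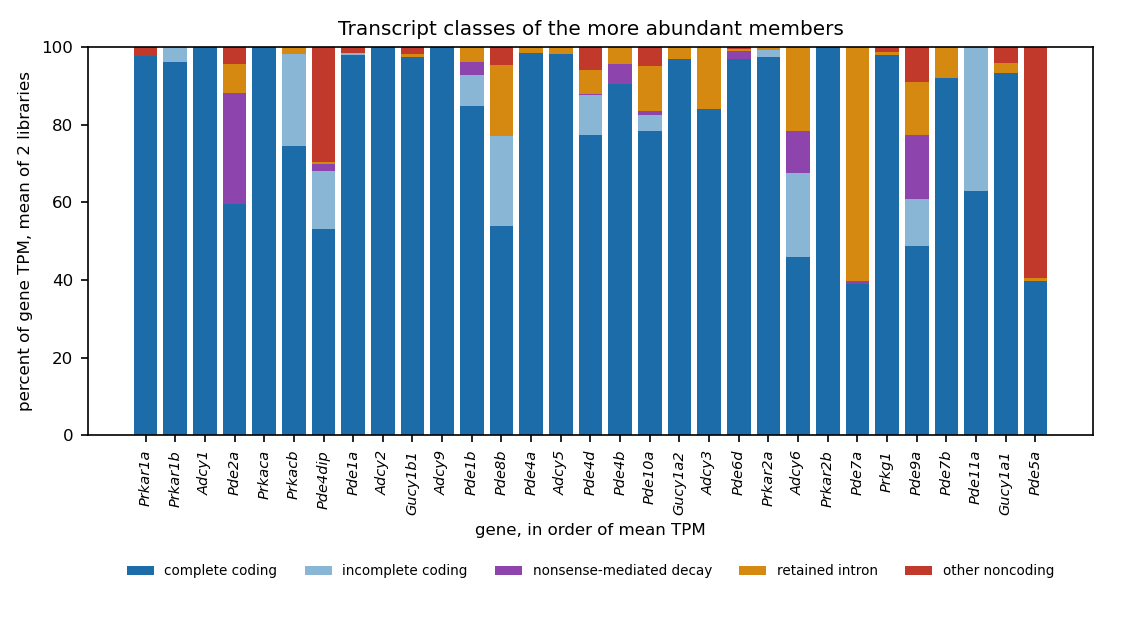
Percent of each gene's TPM by annotated transcript class, mean of both libraries, for the 31 genes whose mean TPM was 5 or more, in falling order of TPM. Complete coding transcripts dominate in most, while other noncoding transcripts lead in Pde5a and retained introns in Pde7a.

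The leading transcript was the same in both quantifications for 30 of 36 genes with several transcripts, and for 76.3% of protein-coding genes. It was a complete coding one in 32 of 36, against 89.4%, and the exceptions were Adcy4, Prkg2, Pde5a and Pde7a. Those with another leader were Adcy4, Adcy9, Gucy1a1, Pde7a, Pde9a and Prkar1a. Among genes at a mean TPM of 10 or more, the share of the leader ran from 15.3% for Pde8b in replicate 2 to 99.7% for Adcy1. For Prkar1a the leaders, Prkar1a-201 and Prkar1a-203, encode the same 381 residues, and for Adcy9 and Gucy1a1 the leading protein length was also the same in both.

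At the gene level, after both quantifications were rescaled over nuclear protein-coding genes, 2 of 37 differed by 1.5-fold or more, against 5.85% of protein-coding genes. None reached 2-fold. They were Adcy4, lower in the second at 0.580-fold, and Pde4dip, at 0.649-fold. In Pde4dip, other noncoding transcripts held 31.4% and 27.8% of its TPM in the first and 3.54% and 0% in the second. Pde6a, at a TPM under 0.1 in the first, was listed at 2.01 and 1.78 in the second, nearly all on the incomplete transcript Pde6a-202.

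**Figure D5:**
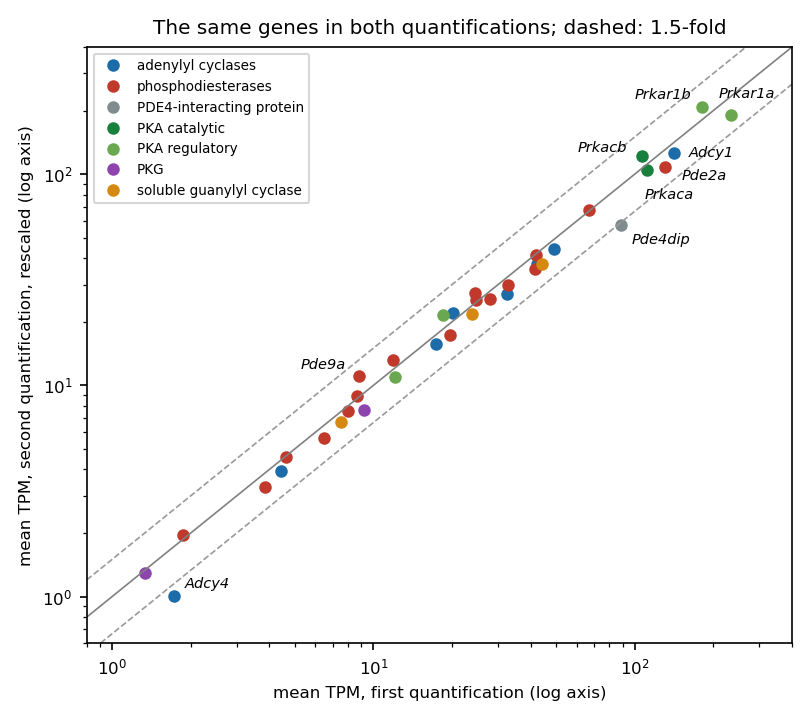
Mean TPM of the 37 genes at a mean TPM of 1 or more in the second quantification, rescaled, against the first, both on log axes; the solid line is equality. Adcy4 and Pde4dip lie outside the dashed 1.5-fold lines, and Prkacb and Prkar1b lie above the line of equality while Prkaca and Prkar1a lie under it.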

How the data were processed

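Total RNA-seq of hippocampus was analysed in 2 libraries of 1 group, each from 300 ng of RNA, per the labels; groups and replicate numbers came from the labels. The notes the authors deposited name mm10 and GENCODE M21; for the tools, none is given in the sources used here. Deposited by the authors, per the file headers, an expected count and TPM are in the gene table and 1 transcript table, and in the other transcript table (the second quantification) an estimated count and TPM, which were summed per gene. Expected counts over genes were 34563482 and 32370292. mm10 represents C57BL/6J, so CAST/EiJ reads may align less well. Use of strand in counting is not stated.

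Members, functional groups and lists were chosen with earlier results of these data known. Every gene the symbol rule finds is accounted for; those at a mean TPM of 10 or more are given in both libraries, with the extremes of each family, the 3 largest library ratios in each direction, and the highest and lowest genes of pathway lists.

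A gene was detected when both libraries had a TPM of 1 or more. Library ratios used rounded expected counts, TMM in edgeR 4.0.16 (R 4.3.3) and a prior count of 0.5, for genes whose mean CPM was 5 or more. Intervals of ratios are exact (Clopper-Pearson, 95%), floors rest on 3 counts, and reads are not independent molecules. A complete coding transcript is a protein-coding one that the annotation does not tag as incomplete. Coding starts came from GENCODE M21 and promoters from RefSeq. Alternatives were DESeq2 1.42.0 size factors, ERCC spike-in scaling, other minimum levels and folds, the second quantification, counts not corrected for length, protein-coding or complete coding transcripts only, and each library alone. The ratio step was tested on simulated data. Other steps used Python 3.11.15, pandas 2.3.3, numpy 2.4.6 and matplotlib 3.10.9.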

Additional observations from a re-analysis of the deposited data

How the results depend on the processing

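No paired analysis was possible because the study has 1 group. Among 47 recomputed values, 26 stayed within the spread of the libraries (counts within 1.5 times) and 21 did not. For the median log2 ratio of the libraries, the limit was instead its own size divided by the square root of 2. The 26 include values that could not have come out otherwise. For the shares and the log2 ratio, a library alone always lies within the SD of the 2 libraries. The count at 2-fold could not exceed the 0 at 1.5-fold. The number of genes detected ranged from 31 at a TPM of at least 5 to 40 in the second quantification, with 37 and 38 in a library alone. With no minimum level, 3 genes passed 1.5-fold between the libraries, namely Pde6c, Pde6g and Pde6h, each at 10 counts or fewer a library, while spike-in scaling, DESeq2 size factors, the second quantification and the 2-fold threshold gave 0. The median log2 ratio of the libraries, 0.010 with TMM, changed sign to -0.169 with spike-in scaling, which shifts every gene by -0.179, and to -0.0034 with no minimum level, and was 0.035 in the second quantification. Spike-in scaling put 34 of 36 genes below 0 and 3 past a 25% difference.

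The share of Adcy1, 45.7% of adenylyl cyclase TPM, was 68.0% in counts not corrected for length and 47.9% in complete coding transcripts, an alternative added after the data were seen. The share of Pde2a, 27.9%, was 24.6% in the second quantification, 30.3% in uncorrected counts, 20.8% in protein-coding transcripts and 22.1% in complete coding ones, and Pde2a led in each. The share of Prkaca, 51.2%, was 46.2% in the second quantification, 41.4% in uncorrected counts, 51.6% in protein-coding and 58.4% in complete coding transcripts, so Prkacb led in the first 2 of these. The share of Prkar1a, 52.5%, was 44.4% in the second quantification, where Prkar1b led, 55.8% in uncorrected counts, 51.9% in protein-coding and 52.8% in complete coding transcripts. The log2 ratio of PKA regulatory to catalytic genes, 1.03, was 0.933 in the second quantification, 1.14 in uncorrected counts and 1.18 in complete coding transcripts. Leaving out a library gave 44.2% to 47.1% for Adcy1, 27.9% for Pde2a either way, 51.1% to 51.2% for Prkaca, 52.4% to 52.6% for Prkar1a and a log2 ratio of 1.01 to 1.05. The cause of these changes was not tested. Genes under 5 CPM, all receptor guanylyl cyclases among them, have too few counts here for a comparison of the libraries.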
